A study of Mus musculus with 14 samples.

Results

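The genes described here are 35 genes of B and T lymphocytes, chosen by their symbols and measured in subcutaneous white adipose tissue, the fat that lies under the skin. Of the 35 genes, 33 had a probe set under their own symbol in the platform annotation used here, and for each the probe set with the highest mean over all arrays was used. All 33 were among the 12945 genes whose mean signal passed the filter on low values, while Lck and Tcf7 were not analysed here. By role, 12 measured members are B cell genes, 14 are T cell genes, and 7 are used by both lineages or by leukocytes in general. The samples were 7 arrays of exercised mice, which lived in wheel cages for 11 days, and 7 arrays of sedentary mice, which were controls without that housing. All mice were 12 weeks old, male and of the inbred strain C57BL/6, with no transgene or drug given in the labels. The labels do not say how far the mice ran, how many mice went into an array, which fat pad was taken or whether lymph nodes were removed from it, and the p-values below therefore reflect no more than the variation among these samples, part of which may be technical. The arrays are written E1 to E7 (exercised) and S1 to S7 (sedentary).

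B lymphocytes make antibodies and recognise antigen through a surface antibody, whose signal passes through the Cd79a and Cd79b chains. T lymphocytes recognise antigen fragments on other cells through a T cell receptor, whose signal passes through the CD3 chains. Both gather in lymph nodes, where B cells occupy follicles and T cells the zones around them, and the inguinal fat pad of the mouse holds a lymph node within the fat, besides the scattered lymphocytes of the fat itself.

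Promoter sequences of 3 members are printed because their genes recur below. Ltb had the largest difference between the groups, and Cd79a and Cd3d encode signalling chains of the B cell and the T cell receptor. The sequences are from RefSeq on the mouse build GRCm38.p6, each with 250 bases before and 50 bases after the transcript start, 5′ to 3′ on the gene's strand. Ltb lies at chr17:35194257-35194556, Cd79a at chr7:24897247-24897546 and Cd3d at chr9:44981536-44981835, all on the + strand. Capitals mark a kappa B type motif, GGGACTTTC, in Ltb (opposite strand) and an ETS type motif, GGAAGT, in Cd79a (same strand) and in Cd3d (opposite strand).
Ltb: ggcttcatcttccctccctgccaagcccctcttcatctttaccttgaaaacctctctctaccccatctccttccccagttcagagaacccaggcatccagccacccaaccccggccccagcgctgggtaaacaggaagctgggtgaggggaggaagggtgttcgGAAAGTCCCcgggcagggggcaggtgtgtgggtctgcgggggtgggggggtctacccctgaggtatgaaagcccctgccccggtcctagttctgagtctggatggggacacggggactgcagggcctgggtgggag
Cd79a: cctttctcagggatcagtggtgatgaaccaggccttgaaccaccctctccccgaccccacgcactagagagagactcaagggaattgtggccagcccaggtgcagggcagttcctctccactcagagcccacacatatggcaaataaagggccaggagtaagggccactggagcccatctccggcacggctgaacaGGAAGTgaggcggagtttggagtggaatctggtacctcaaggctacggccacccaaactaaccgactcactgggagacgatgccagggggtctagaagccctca
Cd3d: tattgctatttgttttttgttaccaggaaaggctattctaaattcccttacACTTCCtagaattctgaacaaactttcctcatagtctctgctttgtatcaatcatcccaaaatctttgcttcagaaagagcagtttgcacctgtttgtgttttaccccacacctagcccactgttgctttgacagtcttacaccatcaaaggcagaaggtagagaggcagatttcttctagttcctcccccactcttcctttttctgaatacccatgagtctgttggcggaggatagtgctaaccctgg

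RefSeq promoters were matched for 22 of the 33 measured members, in 31 windows. Both strands were searched for 4 motifs, none of which contains another. GGGACTTTC was found in 1 member window, that of Ltb, and in 0.353% of all 32851 promoter windows. GGAAGT was found in 11 member windows (35.5%), those of Bank1, Cd37, Cd3d, Cd3e, Cd5, Cd79a, Cr2, Fcer2a, Il7r, Lef1 and Zap70, and in 23.8% of all windows. TGTGGTTT, a RUNX type motif, was found in the window of Il7r and in 1.78% of all windows. The octamer ATGCAAAT was found in 0 member windows and in 1.74% of all windows. The starts of Cd3g and Cd3d lie 1355 bases apart on opposite strands.

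The lymphocyte genes differed more between single arrays than between the groups. The mean of the 33 members, in log2(signal + 46.7), was 11.55 on E1, 11.89 on E2, 11.82 on E3, 12.00 on E4, 9.16 on E5, 11.38 on E6 and 9.88 on E7. In sedentary samples it was 12.06 on S1, 11.56 on S2, 11.90 on S3, 12.04 on S4, 12.66 on S5, 12.16 on S6 and 9.24 on S7. E5, S7 and E7 therefore lay far below the rest, with a gap of 1.50 on the log2 scale between E7 and the next array, E6, while the next widest gap between neighbouring arrays was 0.64. S5 lay highest. The arrays that stand apart belong to both groups. By group the mean was 11.10 ± 1.12 in exercised samples and 11.66 ± 1.11 in sedentary samples (SD, n = 7 each), so the difference of -0.56 was smaller than the spread within either group. Without E5, E7 and S7 the means were 11.73 ± 0.25 (SD, n = 5) in exercised samples and 12.06 ± 0.36 (SD, n = 6) in sedentary samples. Leaving out S5 as well gave 11.73 ± 0.25 (n = 5) in exercised samples and 11.94 ± 0.24 (n = 5) in sedentary samples.

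The same 3 arrays were lowest gene by gene. For 31 of the 33 members E5, E7 and S7 were the 3 arrays of lowest signal, the exceptions being Zap70 and Pax5, whereas these 3 arrays were lowest for 5.82% of all 12945 genes. S5 was the highest array for 28 members, among them all 12 B cell genes, 9 of 14 T cell genes and all 7 genes of both lineages. The share of all genes with S5 as their highest array was not counted, so these counts lack a background. The ratio of the highest to the lowest signal over the 14 arrays had a median of 13.2 over the members (20.2 for B cell genes, 11.4 for T cell genes, 11.8 for genes of both lineages) and of 1.94 over all genes tested. It exceeded 5 for 30 of the 33 members and for 8.40% of all genes. The widest ratio among the members was 104 for Fcer2a, whose lowest signal, 89.5 on S7, lies near the low end of the scale.

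**Figure D1:**
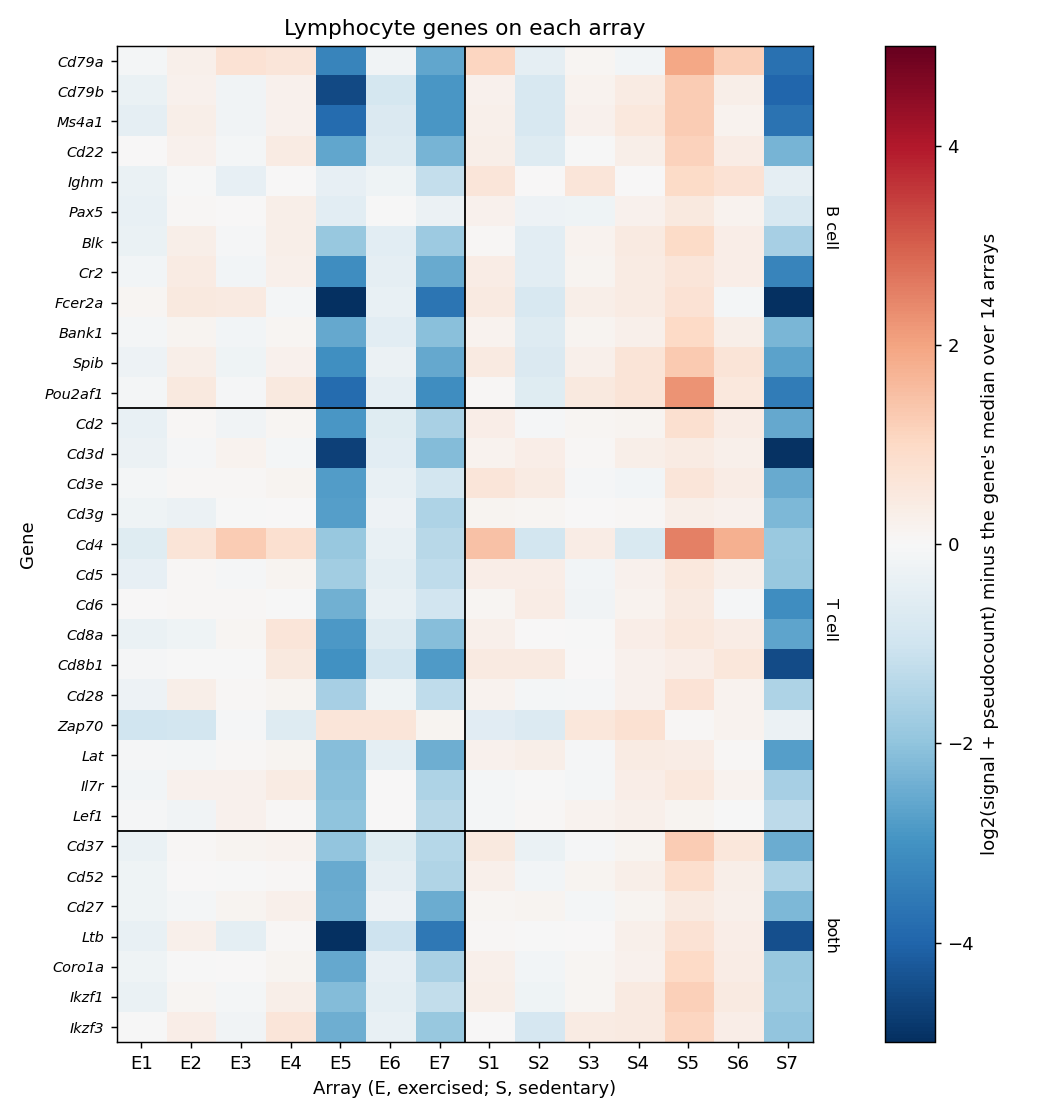
Heat map of the 33 measured lymphocyte genes (rows, B cell genes at the top, then T cell genes, then genes of both) on the 14 arrays (columns, E exercised, S sedentary). Colour is log2(signal + 46.7) minus the gene's own median over the arrays, blue below and red above, and the columns of E5, E7 and S7 are blue for nearly all genes while S5 is the reddest column.

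B cell genes and T cell genes were low and high on the same arrays, though their mean deviations differed in size. For each gene the deviation from its own median over the 14 arrays was taken and averaged within each lineage. The B cell genes deviated by -2.92 on E5, -2.32 on E7 and -2.81 on S7, and the T cell genes by -2.31, -1.52 and -2.41 on these arrays. On S5 the B cell genes deviated by 1.16 and the T cell genes by 0.59. Both means include genes whose probe set in use fell little or not at all on the low arrays. These were Zap70 among T cell genes and Ighm and Pax5 among B cell genes. Other probe sets of these genes fell further. Pax5 1421765_at, under the filter, had a median of 77.1 on the 3 low arrays and 299.1 on the 11 others, and Ighm 1425385_a_at had 310.8 and 2932. Mean signals ran from 716 to 21817 for B cell genes and from 731 to 3500 for T cell genes. The size of a drop is therefore not closely comparable between the lineages. B minus T was lowest on E7, at -0.80, followed by E5 and S2 at -0.61 each and S7 at -0.40, and it was highest on S5, at 0.57. S2 differs from the 3 low arrays in that its T cell genes were close to their medians, at 0.046, and its B cell genes at -0.56. By group, B minus T was -0.17 ± 0.39 in exercised samples and 0.0068 ± 0.39 in sedentary samples (SD, n = 7 each), and without E5, E7 and S7 it was 0.038 ± 0.18 (n = 5) in exercised samples and 0.075 ± 0.38 (n = 6) in sedentary samples. In bulk tissue, fewer cells of a type and less RNA per cell cannot be told apart, here and in all results below.

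**Figure D2:**
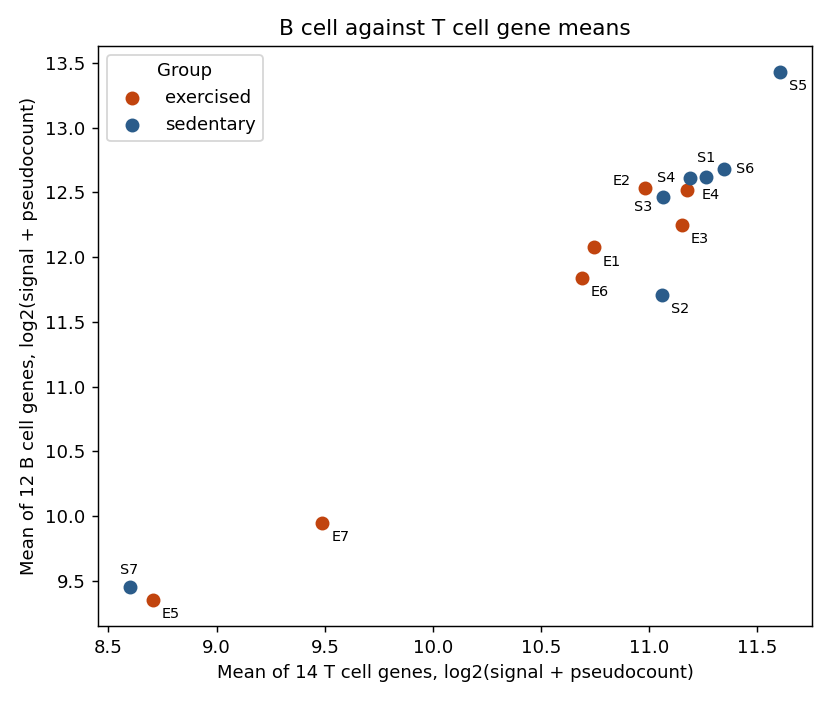
Mean of the 12 B cell genes (vertical axis) against the mean of the 14 T cell genes (horizontal axis), both in log2(signal + 46.7), 1 point per array, for exercised and sedentary arrays. E5, E7 and S7 lie at the lower left, S5 at the upper right, and the other 10 arrays lie close together.

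A single pair of receptor genes, 1 of each lineage, was compared in the same way. Cd79a minus Cd3e, the difference of their log2 values on an array, was 1.72 on E1, 1.93 on E2, 2.39 on E3, 2.20 on E4, 1.20 on E5, 1.92 on E6 and 0.033 on E7. In sedentary samples it was 2.21 on S1, 0.85 on S2, 1.86 on S3, 1.73 on S4, 3.04 on S5, 2.55 on S6 and 0.53 on S7. Its size has no meaning across different probe sets, and only its change between arrays can be read. The groups overlapped, with means of 1.63 ± 0.80 in exercised samples and 1.82 ± 0.90 in sedentary samples (SD, n = 7 each), and the difference of -0.20 gave p = 0.675 in an exact two-sided permutation test, which covers all 3432 ways to divide the arrays and cannot give a p under 0.000583. Its sign depends on single arrays, since it was 0.071 without E7 and 0.00803 without S5.

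How far B and T cell genes moved together was measured only over the 11 arrays above the gap, because the arrays fall into separate clusters and a value over all 14 would mainly restate that gap. Over these 11 arrays Cd79a and Cd3e had a Pearson r of 0.68 (permutation p = 0.0209, adjusted p = 0.0356). Their Spearman rho was 0.63 (permutation p = 0.0446, adjusted p = 0.0603). The Benjamini-Hochberg adjustment covered 4 values, which were not 4 separate relations. They were Cd79a against Cd3e in log2 values, linear signal and quantile-normalized values, and Cd79b against Cd3d. The adjusted p-values thus depend on repeats of the same pair. Without S1 and S5, the 2 arrays farthest from the median of Cd3e, r was 0.36. Leaving out arrays chosen this way narrows the range of Cd3e, which by itself lowers r, so the drop cannot show that the relation rests on them. These values pool exercised and sedentary arrays, and no value within a group is given here. For Cd79b and Cd3d r was 0.54 (permutation p = 0.0881, adjusted p = 0.0881), and it was 0.13 without E1 and E6. Over all pairs of members on the 11 arrays, the median r was 0.78 between B cell genes (66 pairs), 0.61 between T cell genes (91 pairs) and 0.52 between a B and a T cell gene (168 pairs). Without S5 these medians were 0.68, 0.46 and 0.36. These pairwise values describe genes that share the same arrays, array scaling and tissue, and they are not independent of each other. The genes of both lineages followed the remaining members most closely on the 11 arrays, with a median r of 0.98, against 0.91 for B cell genes and 0.66 for T cell genes.

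The comparison of the groups asks whether the fat of mice with a wheel held other lymphocyte RNA levels than that of sedentary mice. In the fit of all genes 716 of 12945 genes (5.53%) passed an adjusted p of 0.05, of which 518 (4%) were higher and 198 (1.53%) were lower in exercised samples, while centring each array on its median gave 589 higher and 101 lower. Of the 33 members 0 passed in limma after Benjamini-Hochberg adjustment, and 1, Ighm, had an unadjusted p under 0.05, beside 10.5% of all genes with an unadjusted p under 0.05 in that direction. With array weights, 1 member, Ighm, passed, beside 3.07% of all genes called lower in that fit. The log2 difference, exercised minus sedentary, was below 0 for all 33 members, beside 55% of all genes. The members rise and fall on the same arrays, so this count is not 33 separate observations. The differences ran from -1.05 (Ltb) to -0.083 (Pax5) with a median of -0.57, where the median over all genes was -0.028. The median was -0.62 for B cell genes, -0.50 for T cell genes and -0.63 for genes of both lineages. For 0 of 33 members did the groups not overlap, beside 2.68% of all genes, and the 95% interval excluded 0 for Ighm only.

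The size of these differences rested on which of the low arrays were in the fit. The median over the members was -0.94 without S7, where 17 of 33 members had an unadjusted p under 0.05, beside 14.2% of all genes in that direction. In that fit Ighm passed the adjusted threshold, beside 2.02% of all genes called lower. It was -0.28 without E5, -0.36 without E7 and -0.40 without S5. Without E5, E7 and S7 together the median was -0.35, and 32 of 33 differences were below 0, beside 53.9% of all genes. There 11 members had an unadjusted p under 0.05, beside 9.29% of all genes in that direction, and 0 passed the adjusted threshold in limma, beside 0.44% of all genes called lower. Without these 3 arrays and S5, the median was -0.25, and 30 differences were below 0, beside 55.1% of all genes. There 9 members had an unadjusted p under 0.05, beside 9.97% of all genes in that direction. After adjustment 0 passed in limma, beside 1.54% of all genes called lower. E5, E7 and S7 were picked by the members' own values, and so was S5. Leaving them out narrows the spread of these genes in particular. The member counts in these fits therefore cannot be weighed evenly against the shares of all genes.

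**Figure D3:**
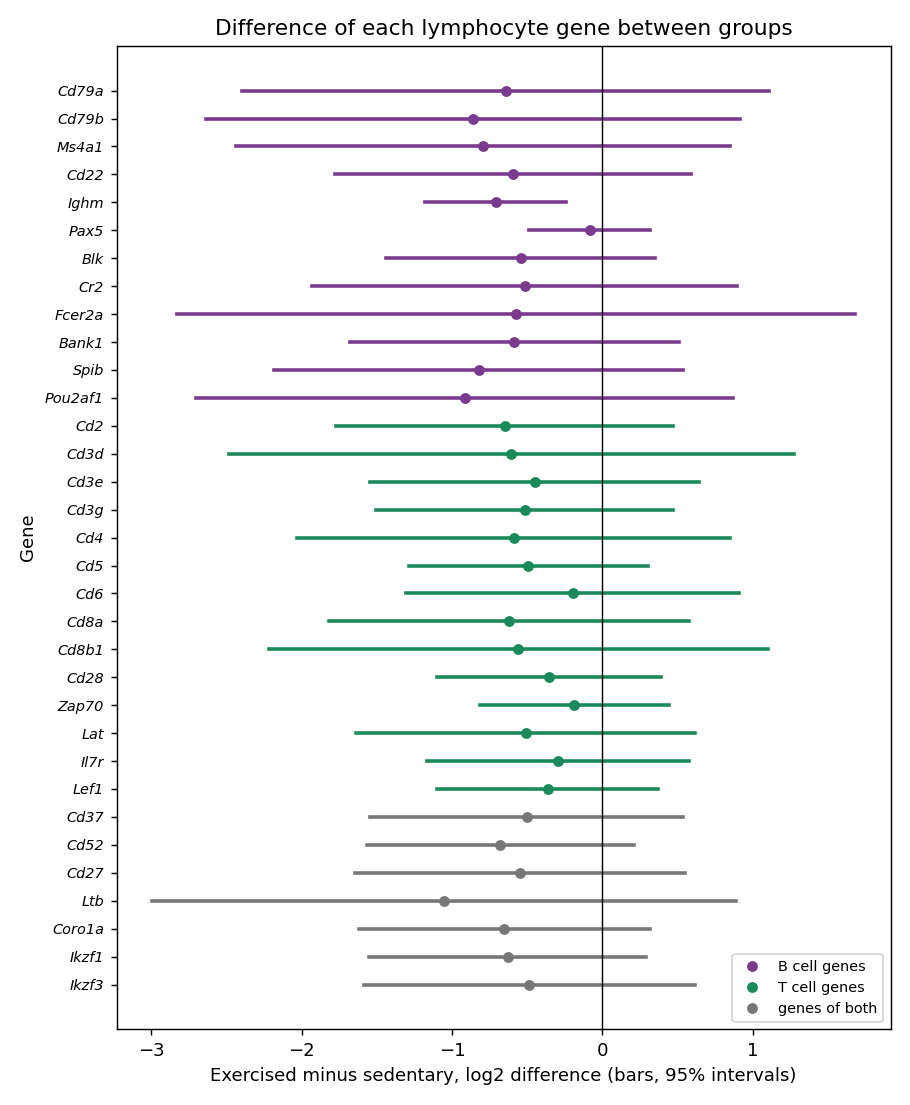
Log2 difference of each of the 33 lymphocyte genes, exercised minus sedentary (points), with its 95% interval from limma (bars). B cell genes are at the top, T cell genes in the middle and genes of both below, and all points lie left of 0 while the interval of Ighm alone excludes it.

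Among the genes of the B cell receptor, Cd79a (1418830_at), a signalling chain, had a lowest, median and highest signal of 459.4, 4687 and 8189 in exercised samples, against 335.2, 5259 and 19139.7 in sedentary samples. The low ends belong to E5 and S7 and the highest value to S5, and the groups overlapped. Its log2 difference was -0.64 (SE 0.82, limma adjusted p = 0.676), and -0.34 without E5, E7 and S7. Cd79b (1417640_at), its partner chain, had 304.2, 6233 and 9201 in exercised samples, against 469.1, 9300.4 and 19025 in sedentary samples. All 7 exercised arrays lay below the sedentary median, though the groups overlapped through S2, S3 and S7. Its difference was -0.86 (SE 0.83, limma adjusted p = 0.574), and -0.46 without the 3 low arrays. Cd22, a receptor that dampens this signal, and the kinase Blk had differences of -0.59 and -0.54. Bank1, a scaffold protein of the same pathway, had a difference of -0.59.

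Ighm, the constant part of the heavy chain of IgM antibodies, is given by its probe set of highest mean (1427351_s_at). This probe set varied less than those of most B cell genes, with a ratio of 4.48 from its lowest to its highest array. Other Ighm probe sets past the filter varied more, such as 1425385_a_at, with 46.7 on E5 and 58553 on S5. The probe set 1427351_s_at read 16024, 20320.4, 15394, 20790.6, 15253, 17714 and 8932 on E1 to E7, against 30701, 20757, 30882, 20342, 40042, 33454 and 14838 on S1 to S7. E5 was close to E3 and E1 here, E7 was the lowest array, and the highest exercised array lay above S2, S4 and S7 only. The difference was -0.71 (SE 0.22, 95% interval -1.18 to -0.24, limma adjusted p = 0.0746), and the adjusted p ran from 0.0228 to 0.646 over the alternatives. Exercised signals averaged 16347 ± 3971 and sedentary signals 27288 ± 8862 (SD, n = 7 each). It passed the threshold without S7 (-0.84, limma adjusted p = 0.0228) and with array weights (limma adjusted p = 0.0288), and it did not in the mean of all its probe sets (-0.61, limma adjusted p = 0.646).

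The surface receptors of B cells were low on the same arrays. Ms4a1 (1423226_at), the CD20 membrane protein, had 640.9, 7375 and 12176 (lowest, median, highest) in exercised samples, against 719.4, 11683 and 24085 in sedentary samples. Its difference was -0.80 (SE 0.77, limma adjusted p = 0.575) with overlapping groups. Cr2 (1425289_a_at), a complement receptor of B cells that follicular dendritic cells carry too, had 327.9, 2929 and 4244 in exercised samples, against 278.9, 4000.3 and 4849 in sedentary samples. S7 and E5 were its 2 lowest arrays, and the difference was -0.52 (SE 0.66, limma adjusted p = 0.677). Fcer2a, the CD23 receptor for IgE, had 93.3 on E5, 404.1 on E7 and 89.5 on S7, where its other arrays lay between 3217 and 9269. Its difference of -0.57 turned to 0.12 without E5 and was -0.048 without the 3 low arrays.

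Of the B cell transcription factors, Pou2af1 (1416957_at), a coactivator that works with octamer-binding factors, had the second largest difference of all members. Its lowest, median and highest signals were 198.4, 3185 and 4886 in exercised samples, against 259, 4912 and 16381 in sedentary samples. The highest value is that of S5 and is more than the next sedentary value, 5479 on S4, by a wide margin. The difference of -0.92 (SE 0.84, limma adjusted p = 0.549) was -0.49 without E5, E7 and S7 and -0.16 when S5 was left out as well. Spib, an ETS family factor, had a difference of -0.82 (SE 0.64). Pax5, which commits cells to the B lineage, had the smallest, -0.083 (SE 0.19), and without S5 it was 0.00207. Its signals in the probe set used (1454401_at), 491.8 to 921.2 in exercised samples and 396.2 to 1041 in sedentary samples, spanned a ratio of 2.63.

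The CD3 chains carry the signal of the T cell receptor and mark T cells of all kinds. Cd3d (1422828_at) read 3373, 3890, 4579, 3774, 118.4, 2858 and 870.5 on E1 to E7, against 4632, 5167, 4314, 4991, 5390, 4952 and 88.1 on S1 to S7. Apart from E5, E7 and S7 the groups nearly separate, with only E3 above the lowest remaining sedentary array, S3. The difference was -0.60 (SE 0.88, limma adjusted p = 0.719) over all arrays and -0.42 (limma adjusted p = 0.0763) without the 3 low ones. Cd3e (1422105_at) had 173.2, 1388 and 1621 in exercised samples, against 217.7, 1893 and 2282 in sedentary samples, with a difference of -0.45 (SE 0.51, limma adjusted p = 0.638). Cd3g (1419178_at) had 428.9, 2642.5 and 3192 in exercised samples, against 625, 3380.2 and 3829 in sedentary samples. The groups overlapped for both genes, and the difference of Cd3g was -0.52 (SE 0.46, limma adjusted p = 0.542).

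The coreceptors that divide T cells into helper and cytotoxic cells were measured with unequal strength. Cd4 (1419696_at) was weak, at 84.3, 330.1 and 1131 (lowest, median, highest) in exercised samples, against 88.2, 574.4 and 2731 in sedentary samples. Outside the 3 low arrays it still spanned 212.1 on S2 to 2731 on S5, and the difference was -0.59 (SE 0.68, limma adjusted p = 0.638). Cd8a (1451673_at) had 214.1, 1499 and 2883 in exercised samples, against 264.3, 2255 and 2764.5 in sedentary samples. E4 was its highest array, and the difference was -0.62 (SE 0.56, limma adjusted p = 0.546). Cd8b1, the partner chain, had a difference of -0.56 and its lowest signal, 63.1, on S7.

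The other T cell genes had differences from -0.65 (Cd2) to -0.19 (Zap70). Il7r (1448575_at), the receptor for the survival factor interleukin 7, had 827, 3737 and 4953 in exercised samples, against 1143, 3609 and 5366 in sedentary samples. The exercised median was thus the higher one, while the difference of the log2 means was -0.29 (SE 0.41, limma adjusted p = 0.704), and it was 0.011 without E5, E7 and S7. Cd2, an adhesion receptor, had a difference of -0.65, and the scavenger type receptors Cd5 and Cd6 had -0.49 and -0.20, that of Cd6 turning to 0.12 without E5. The costimulatory receptor Cd28 had -0.35, the adaptor Lat -0.51 and the transcription factor Lef1 -0.36. Zap70, the kinase that binds the CD3 chains, did not follow the others in the probe set of highest mean (1439749_at), where E5 read 4514, E7 3197 and S7 2391, against a range of 1427 to 4947 on the other arrays. A second probe set of Zap70 (1440178_x_at) read 410.7 on E5, 365.4 on E7 and 334.8 on S7, below the lowest of the other arrays, 1107, and so did 1422701_at, with 96.4, 439.7 and 280 where the lowest of the other arrays read 675.7. Its difference was -0.19 in the first probe set, -0.29 in 1440178_x_at and -0.70 in 1422701_at.

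Of the genes of both lineages, Ltb (1419135_at), which encodes lymphotoxin beta, a membrane protein needed for lymph nodes to form, had the largest difference of all members. Its lowest, median and highest signals were 223.9, 6939 and 11676 in exercised samples, against 428.8, 10401 and 16218 in sedentary samples. The groups overlapped, and the difference was -1.05 (SE 0.91, limma adjusted p = 0.527), with -0.55 left without E5, E7 and S7. Cd52 (1460218_at), a small surface glycoprotein of lymphocytes, had 3207, 15771 and 19450 in exercised samples, against 6246, 21836 and 33214 in sedentary samples (-0.68, SE 0.42, limma adjusted p = 0.362). Coro1a (1416246_a_at), an actin-binding protein of leukocytes, had 3095, 15774 and 19996 in exercised samples, against 4943, 21117 and 36431 in sedentary samples (-0.65, SE 0.46, limma adjusted p = 0.426). Ikzf1 (1436312_at), the lymphoid transcription factor Ikaros, had 914.7, 3384 and 5323 in exercised samples, against 1172, 5245 and 10055 in sedentary samples (-0.63, SE 0.43, limma adjusted p = 0.419). For these 3 genes S5 was highest and E5 lowest, and each pair of groups overlapped. The related factor Ikzf3 had a difference of -0.49, the tetraspanin Cd37 one of -0.50 and the receptor Cd27 one of -0.55.

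Other probe sets of the same genes mostly followed the ones used. The 33 members had 63 probe sets in all, and beside the 33 used, 24 passed the filter. Of these 24, 22 had a negative difference, 2 had a positive one (0.0065 for Cd8a 1425335_at and 0.14 for Cd28 1437025_at), 0 passed an adjusted p of 0.05 in limma over all probe sets, where the lowest was 0.186, and 20 had E5, E7 and S7 as their 3 lowest arrays. The 7 further probe sets of Ighm that passed the filter stood out through S5. 1425247_a_at read 67552 on S5, where its next highest array read 6683. 1427756_x_at read 62615 on S5, with 3914 next, and 1425324_x_at read 58234, with 2971 next. 1425385_a_at read 58553 with 16116.5 next, 1427870_x_at 53981 with 8365 next, and 1452535_at 9396 with 1487 next. Only 1427329_a_at, with 38992 on S5 and 31255 next, resembled the probe set of highest mean. Names ending in _x_at, here 1427756_x_at, 1425324_x_at and 1427870_x_at, mark probe sets that may bind more than 1 transcript. The ending _s_at, here of 1427351_s_at, the probe set used, does so too. The signals of these probe sets may include other antibody transcripts. Which transcripts the Ighm probe sets bind was not tested.

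**Figure D4:**
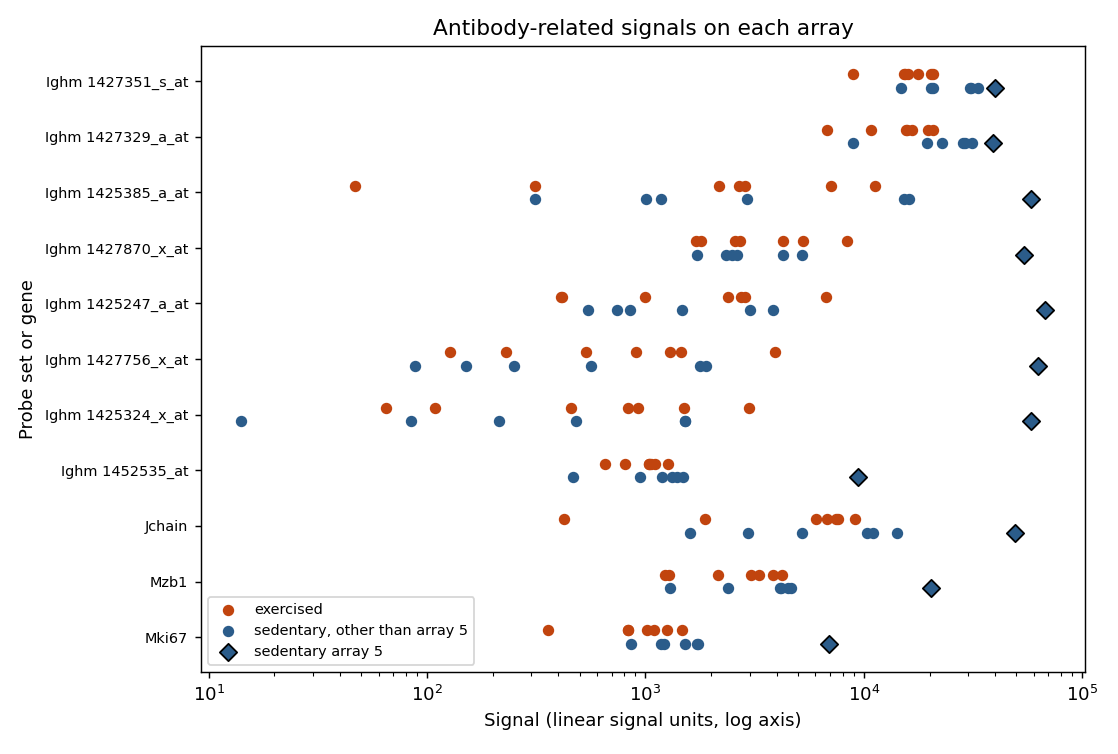
Signal (horizontal, log axis) of the 8 Ighm probe sets that passed the filter and of Jchain, Mzb1 and Mki67, 1 point per array, with S5 as a diamond. S5 was the highest array in each row, by more than 3 times the next array in 6 of the 8 Ighm rows.

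Marker lists of other cells, which share no gene with the members, showed what else moved with the lymphocyte genes. Of all 12945 genes, 55% had a negative difference and 10.5% were lower at an unadjusted p under 0.05 in limma. After adjustment 1.53% were called lower and 4% higher. These shares stand beside the counts of each list. Of 15 further B cell genes measured, 0 passed the threshold in limma (0 with an unadjusted p under 0.05), 15 had a negative difference and the median was -0.61. Of 22 further T cell genes, 0 passed (3 lower at an unadjusted p under 0.05) and the median was -0.36. Of 16 general leukocyte genes, 0 passed (1 lower at an unadjusted p under 0.05), and the median was -0.45. Their summed signals were 36455 on E5, 61352 on E7 and 47521 on S7, where S5 had 220072. The 18 macrophage and monocyte genes did not share the pattern of low arrays. For 0 of them were E5, E7 and S7 the 3 lowest, beside 5.82% of all genes. Their summed signal on these arrays was 194843, 250067 and 207440, within the range of 181752 to 308497 over all arrays. All 18 had a negative difference, with a median of -0.34, and 7 were lower at an unadjusted p under 0.05. Of these 18 genes 1 was called lower after adjustment, Tyrobp, an adaptor of myeloid receptors (-0.52, SE 0.15, limma adjusted p = 0.0482).

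Some genes of the lymph node's own framework were low on the same arrays. Glycam1, a ligand for lymphocyte homing made by the high endothelial venules of lymph nodes, read 84 on E5, 351.6 on E7 and 34.5 on S7, where the other arrays read between 3282 and 13112. It was thus low on these 3 arrays and high on the 11 others, in both groups. Cxcl13, a chemokine of B cell follicles, read 2010.5 on E5, 2922 on E7 and 626.3 on S7, below the lowest of the other arrays, 5153. Of 15 measured genes of lymph node stroma, venules and follicular dendritic cells, 6 had E5, E7 and S7 as their lowest arrays, beside 5.82% of all genes. Of the 15, 0 passed the threshold, and 2 were lower at an unadjusted p under 0.05 in limma, beside 10.5% of all genes. The median difference was -0.24. Ccl21a and Ccl19, defining stromal chemokines, were not analysed here. The part of lymph node tissue in the differences between groups was not tested.

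**Figure D5:**
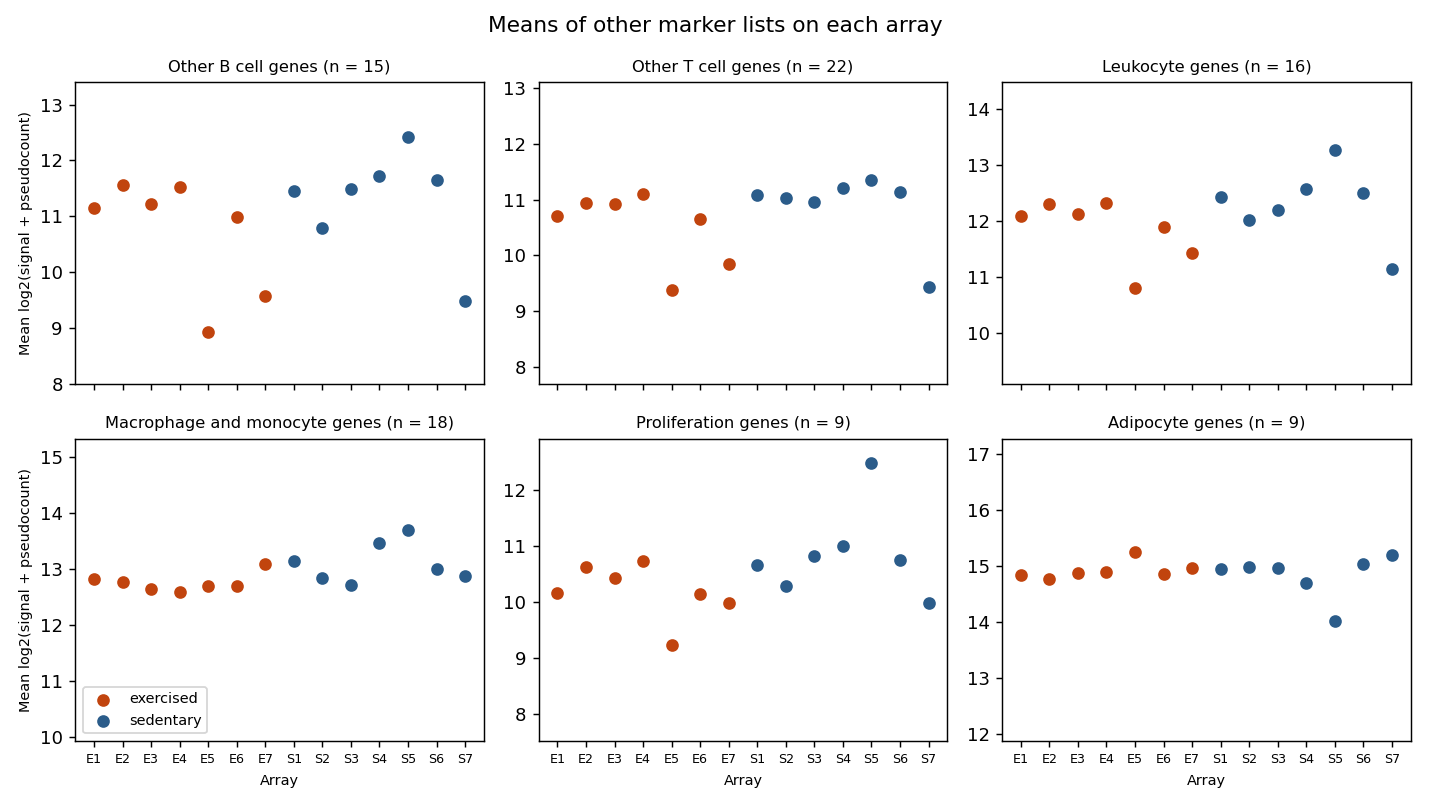
Mean log2(signal + 46.7) of 6 marker lists (panels, with the number of genes) on each array, exercised on the left and sedentary on the right of each panel, with all panels spanning the same height on the log2 scale. Further B and T cell genes drop on E5, E7 and S7, macrophage genes do not, and S5 is highest for proliferation genes and lowest for adipocyte genes.

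The summed signal of 9 measured adipocyte genes was 348273 to 444306 in exercised samples and 256982 to 417910 in sedentary samples. S5 was the lowest. These genes are not particular to 1 fat depot, so they cannot test the subcutaneous label. S7 stood apart in some epithelium and brown fat genes. Krt8 read 3252 and Krt18 2048 on S7, against at most 793.9 and 790.9 elsewhere. Cidea read 224.5 and Ucp1 67.3 on S7, against at least 4114 and 924.7 elsewhere. Krt14 (531.4) and Dio2 (1269) on S7 lay within the range of the other arrays. What sets S7 apart was not tested. Trimmed array means were equal by scaling, medians ran from 531.3 to 617.4 and rank correlations between arrays from 0.898 to 0.970. The ratio of 3′ to 5′ probe sets of Gapdh, a sign of RNA integrity, ran from 0.694 to 0.796 and was 0.743, 0.782 and 0.796 on E5, E7 and S7. Skeletal muscle genes varied widely, with summed signals of 6313 to 693856 in exercised samples and 5321 to 268858 in sedentary samples. Their mean, 12.50 on E5, 14.09 on E7 and 8.12 on S7 in log2(signal + 46.7), spanned most of its range across the 3 arrays low in lymphocyte genes. With this mean as a covariate 0 members passed in limma, beside 213 of all 12945 genes, of which 38 were lower. The median difference of the members was -0.59. In that fit 1 member had an unadjusted p under 0.05, and the share of all genes under it was not counted.

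The genes whose pattern over the 14 arrays was most like the mean of the members were named by the highest Pearson r, as a description. Among 12912 other genes the 20 highest had r between 0.983 and 0.994, the median gene had -0.064, and 310 genes exceeded 0.9. This ranking over 14 arrays largely follows the gap between E5, E7 and S7 and the rest. Over the 11 arrays above the gap the same 20 genes had r between 0.83 and 0.98, with a median of 0.92 beside -0.052 for all 12912 genes, and 2 of them were among the 20 highest there. The 20 were H2-Oa, Rasal3, Ptprcap, Arhgap45, Ighv14-2, Prkcb, Fcmr, Nup210, H2-Ob, Limd2, Gm8369, Ccr7, B4galnt1, Ly6d, Satb1, Epsti1, Trav9d-3, Nlrc3, Bach2 and H2-DMb2. H2-Oa and H2-Ob encode the chains of an inhibitor of antigen loading in B cells, Fcmr a receptor for IgM, and Ccr7 a receptor that guides lymphocytes into lymph nodes. H2-Oa, at the head, had r = 0.95 over the 11 arrays above the gap and a group difference of -0.73 (limma adjusted p = 0.487).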

How the data were processed

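RNA of 14 samples was labelled with biotin and measured on Affymetrix 3′ arrays. The deposited values are intensity on a linear scale, 1 per probe set for 45101 probe sets, made by MAS5 (per the submitters' processing notes); its version and settings are not given in the sources used. The trimmed mean (2% at each end) was 1500 on all 14 arrays, so differences in total RNA per cell are removed. Groups came from the group label and replicate numbers from the titles.

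Values were analysed as log2(signal + 46.7); the added 46.7, the 10th percentile of the values, understates differences of low genes. Symbols came from the platform annotation, updated through gene identifiers (34741 of 34945 probe sets with 1 symbol matched); 932 probe sets with several symbols, 9160 with none and 64 controls were left out, as were probe sets with a mean under 389.7, the 40th percentile. Each gene is its probe set of highest mean. Exercised and sedentary arrays were tested by limma 3.58.1 with R 4.3.3 (eBayes with a variance trend, two-sided, Benjamini-Hochberg over 12945 genes, threshold 0.05), after tests on simulated data. Permutation tests were computed directly, over all divisions of the arrays for Cd79a minus Cd3e and with 100000 resamples for correlations. SciPy 1.17.1 supplied the ranks for Spearman rho. Array-level means carry no test. The number of arrays limits the precision.

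The members and the gene lists were chosen with earlier results of these data known. Values by sample are given for a fixed panel of 16 members (Lck, on the panel, was not analysed here), for members past the threshold and for the 3 largest differences; other members are given by their differences, and other lists by counts. Glycam1, Cxcl13, Jchain, Mzb1, Mki67, Krt8, Krt18, Krt14, Cidea, Ucp1 and Dio2 were named after their values were seen. So were members singled out for their pattern, such as Zap70 and Fcer2a. Alternatives were other scalings, pseudocounts, filters, probe set rules, variance models and covariates, and leaving out arrays. Leaving out E5, E7 and S7 together, with and without S5, was added after seeing the data. These arrays were chosen by the values of the members.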

Additional observations from a re-analysis of the deposited data

Results flagged for a closer look

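A sample was marked where its gap to the nearest other sample of its group, divided by the group's range, exceeded the 95% critical value of Dixon's test for 7 samples. Over 37 items (the 33 members and 4 summary values) in 74 groups, 26 were marked; chance marks about 1 in 20 groups, but these genes move together on the same arrays, so the marks are not separate events. S7 was the lowest sedentary array in 23 of them. Among B cell genes this ratio was 0.575 for Cd79a, 0.602 for Cd79b, 0.585 for Ms4a1, 0.709 for Cr2 and 0.752 for Fcer2a. Among T cell genes it was 0.751 for Cd2, 0.94 for Cd3d, 0.754 for Cd3e, 0.89 for Cd3g, 0.736 for Cd5, 0.818 for Cd6, 0.824 for Cd8a, 0.893 for Cd8b1, 0.653 for Cd28, 0.857 for Lat, 0.706 for Il7r and 0.775 for Lef1, and it was 0.819 for the T cell mean. Among genes of both lineages it was 0.572 for Cd37, 0.599 for Cd52, 0.792 for Cd27, 0.858 for Ltb and 0.606 for Coro1a. In exercised samples 3 genes had a sample far from the rest, Cd3e (0.642) and Cd6 (0.583) through a low E5 and Ighm (0.633) through a low E7. E5 and E7 were both low for most members, which widens the exercised range without leaving a gap next to a single array.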

How the results depend on the processing

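Of 889 values of single members under 27 alternatives, 880 kept their sign and their side of the threshold. Ighm passed the threshold without S7 and with array weights, so 1 member passed there; leaving out single arrays gave 0 to 1. The sign turned for Fcer2a (-1.36 to 0.12 without single arrays, positive without E5; 0.065 without the 3 low arrays and S5), Cd6 (-0.66 to 0.12, positive without E5), Pax5 (-0.21 to 0.00207, positive without S5), Il7r (0.011 without the 3 low arrays, 0.093 without S5 as well) and Ikzf3 (0.00348 without the 3 low arrays and S5). Of all genes 716 passed, against 161 with the replicate number as a block, 213 with the muscle covariate, 217 without the 3 low arrays and 402 to 853 without single arrays. Cd79a minus Cd3e ran from -0.41 to 0.071 without single arrays (positive without E7 or S5) and was 0.19 without the 3 low arrays and S5; Cd79b against Cd3d gave r = 0.54. The deviations of arrays of the same number had r from -0.43 to 0.38, over 0.1 in 3 of 7 pairs, with 3 arrays closest to their own number. These values cannot tell whether the numbers pair samples, and the labels do not say. Under the block 0 members passed. The cause of these changes was not tested. Fewer arrays remained in the fits that leave some out. Signals near 46.7 limit what can be read on the low arrays.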

Other observations

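S5 was high in genes of dividing and antibody-secreting cells, besides the B cell genes. Jchain, which links the units of secreted IgM and IgA, read 49018 on S5 and between 422.3 and 14186 on the other arrays. Mzb1, a helper of antibody assembly, read 20211 on S5 and at most 4639 elsewhere. Mki67, a marker of dividing cells, read 6914 on S5, with 1734 as the next highest array, and S5 was the highest array for all 9 measured proliferation genes, with a summed signal of 62155 against 24833 on the next array. Igha, the heavy chain of IgA, did not share this, at 1073 on S5 and 9348 on S1. On S5 the summed adipocyte genes were the lowest of all arrays, at 256982, and 10 of the 18 macrophage genes were highest. The share of all genes with S5 as their highest array was not counted, so the counts for proliferation and macrophage genes lack a background. These values belong to 1 array, and what sets it apart was not tested.

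Foxp3, a factor of regulatory T cells, was low in signal, and S7 (430.7) and S5 (425.9) lay close to the other sedentary arrays. It read 212.9 to 414.4 in exercised samples and 424.3 to 509.2 in sedentary samples, so the groups did not overlap, beside 2.68% of all genes for which they did not. Its difference was -0.37 (SE 0.14, limma adjusted p = 0.137), so it did not pass the threshold. The filter of 389.7 on the mean signal lies between its exercised median of 351.3 and its sedentary median of 430.7. Foxp3 thus passed the filter only through the sedentary arrays, where it was higher. The lack of overlap and the p-value are therefore no support for a difference. Gzmb, a cytotoxic granule enzyme, had 367.1 to 536.9 in exercised samples and 526.6 to 1909 in sedentary samples (-0.66, SE 0.22, limma adjusted p = 0.101). Both genes were chosen as the members with the smallest p of their lists.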
